A study of Mus musculus with 6 samples.

Results

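Pericytes of mouse lung were chosen cell by cell from raw counts of unique molecular identifiers (UMIs), each of which marks 1 captured transcript. A barcode was a member when it had at least 500 genes and at most 15% mitochondrial UMIs, and when 5 pericyte genes together (Cox4i2, Higd1b, Pdzd2, Kcnj8 and Notch3) gave at least 3 UMIs, of which at least 1 came from Cox4i2 or Higd1b. Members also had at most 2 UMIs of the smooth muscle genes Actg2, Des and Cnn1, at most 1 of the endothelial genes Cdh5, Pecam1 and Cldn5, none of Ptprc or Epcam, and at most 1 of Trap1a and Trnp1, which mark the leukaemia cells. By this rule 132 of 24640 barcodes past the gene and mitochondrial limits were pericytes (0.536%), out of 28516 barcodes in all. AML libraries 1, 2 and 3 held 12, 42 and 31 members, and Control libraries 1, 2 and 3 held 11, 23 and 13.

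The AML group is 3 libraries of non-haematopoietic niche cells from lungs that an acute myeloid leukaemia (AML) had infiltrated, the leukaemia being labelled Trp53 R172H/Δ. The Control group is 3 libraries of the same kind of cells from normal lungs. All lungs were digested with Liberase and DNaseI and sorted, and transcripts were tagged at the 3′ end with 10x Chromium chemistry, version 3.1. Sorted GFP+ leukaemia cells were then added as 20% of each AML suspension, beside 80% niche cells, and not to the Controls. The labels name no strain, age, sex, batch, number of animals or way in which the leukaemia was given. Nothing in them says that libraries come from separate animals, so p-values below measure only the spread between libraries, which may be technical.

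Pericytes are mural cells that wrap capillaries inside the vessel's basement membrane. Endothelial PDGF-B holds them there through the receptor PDGFRβ, they answer nitric oxide and vasoactive peptides with changes of tone, and they send back angiopoietin 1 and other signals. In the lung they lie between the capillary endothelium and the alveolar wall beside alveolar fibroblasts, and their adult markers include the mitochondrial genes Cox4i2 and Higd1b.

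Depth set firm limits on what could be seen. Summed over members, pericyte UMIs numbered 32617, 96448 and 90834 in AML 1, 2 and 3, against 43580, 80800 and 43784 in Control 1, 2 and 3. A member held a median of 2308 UMIs in the AML group and 3467 in the Control group. Levels below are CPM, a gene's UMIs scaled to a common total of these sums with edgeR's TMM factors, so that 1 UMI was worth 10.0 to 29.3 CPM in the AML libraries and 12.1 to 24.9 CPM in the Controls. A single deep cell gave between 4.13% of the pericyte UMIs of AML 2 and 20.8% of those of Control 1. Median mitochondrial shares of members were 2.61, 2.57 and 2.79% in AML 1, 2 and 3, and 5.55, 2.90 and 4.47% in Control 1, 2 and 3. Pairs of libraries shared 1 to 20 barcodes past the limits, 0 members of one library had the barcode of a member of another, and scoring for doublets with Scrublet marked 0 of the 132.

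Most members carried pericyte genes that the rule did not use. Of 10 further markers, 117 of 132 cells (88.6%) had a UMI of at least 3, with a median of 6 markers, and this held for 77 of 85 AML cells and 40 of 47 Control cells. Gucy1a1, a subunit of the nitric oxide receptor guanylate cyclase, was seen in 92.9% of AML pericytes and 91.5% of Control pericytes. In capillary endothelial cells, which should lack it and had medians of 3599 UMIs in the AML group and 4934 in the Control group, the shares were 4.29% and 4.13%. Pdgfrb, the receptor that ties pericytes to endothelium, was seen in 68.2% of AML pericytes and 70.2% of Control pericytes, against 0.33% and 0.463% of capillary cells of the AML and Control groups. Periostin (Postn), a matricellular protein, was found in 80.0% of AML and 83.0% of Control pericytes. Cspg4, which encodes NG2, and Abcc9, the regulatory subunit of a potassium channel, were seen in fewer cells, with 20.0% and 10.6% in the AML group and 23.4% and 19.1% in the Control group. Lamc3, a laminin chain, was near its level in capillary cells: 10.6% of AML and 4.26% of Control pericytes, with 4.92% of AML and 1.57% of Control capillary cells. Rgs5 was the marker whose share parted the groups, as described below.

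**Figure D1:**
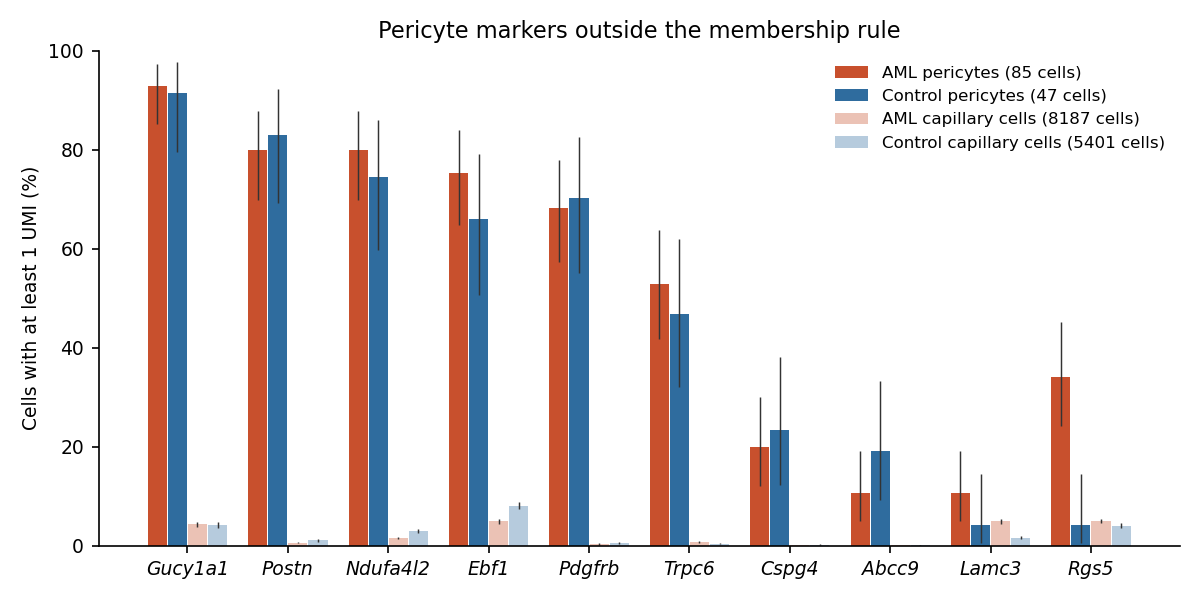
Share of cells with at least 1 UMI of 10 pericyte markers that the rule did not use, in pericytes of the AML and Control groups and in capillary endothelial cells of both (bars, pooled over the libraries of a group; lines, exact 95% binomial intervals, which cover counting error only). Gucy1a1 reached 92.9% in AML and 91.5% in Control pericytes, while Rgs5 reached 34.1% in AML and 4.26% in Control pericytes.

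A minority of members stood apart from this picture. The 15 cells with fewer than 3 of the 10 markers, 8 of the AML group and 7 of the Control group, had a median of 4 UMIs of the rule's genes, where the 117 others had 17. They held 49.6% of all UMIs of 18 fibroblast markers found in members, at 15780 CPM in the AML group and 7526 CPM in the Control group, against 2008 CPM and 2720 CPM in the 117 others. One of them, in AML 3, was the deepest member of all, with 16547 UMIs, 1 of the 10 markers, 438 UMIs of Timp3 and 83 of the collagen-binding proteoglycan Dcn. That cell gave 394 of the 539 fibroblast-marker UMIs of the 8 AML cells, and in Control 2 and Control 3 the cells with few markers stood at 2082 and 972 CPM, so a few cells carried these levels. The 117 others were not free of such UMIs and held 65.0% of those of the Control group. Among them were an AML 3 cell of 8521 UMIs with 182 fibroblast-marker UMIs, 116 of them Dcn, a Control 2 cell of 8770 UMIs with 155, and a Control 1 cell of 9044 UMIs with 105 UMIs of the myofibroblast gene Hhip. The label thus has support from independent markers in 117 cells, some of which also carry genes of other cell types. Below, the test of Fst and the fits of Rgs5 against other cell types are also given without the cells that lacked pericyte markers. Without those cells the test of Rgs5 between the groups could not be run. The cells with fewer than 3 markers gave 3 Rgs5 UMIs in the AML group and 0 in the Control group.

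Near the threshold of the rule the same gradient was seen. Gucy1a1 stood at 4813 CPM in the 115 members with at least 5 UMIs of the rule's genes, at 1254 CPM in the 9 members with 4, and at 766 CPM in the 8 members with 3. In 16 barcodes just outside, with 2 UMIs, it stood at 360 CPM, and Postn at 21.2 CPM, against 167 CPM in the members with 3 UMIs and 2413 CPM in those with at least 5. The upper limits on other cell types' genes left 132 of the 705 barcodes with enough pericyte UMIs. Of the 705, 477 had more than 1 UMI of the endothelial genes, 124 had more than 2 of the smooth muscle genes, 17 had Epcam, 11 had Ptprc and 10 had more than 1 of the leukaemia genes, with some counted under several limits.

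Relative to alveolar fibroblasts, smooth muscle cells and capillary endothelial cells, members were richest in Spp1, Cstdc2, Lef1, Vtn and Adcy8. These levels describe cells chosen by expression and carry no test. In all, 223 genes had at least 50 CPM and stood above all 3 other cell types in each of the 6 libraries. Spp1, which encodes the secreted phosphoprotein osteopontin, stood at 3657, 10540 and 2220 CPM in AML 1, 2 and 3, against 947, 1627 and 2526 CPM in Control 1, 2 and 3. Control 3 lay above AML 3, so the groups overlapped, and Spp1 did not pass the test between them (edgeR, log2 change 1.70 ± 0.60 SE, adjusted p = 0.556). In those 3 other cell types its mean was 4.87 CPM at most, in capillary cells.

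The other leading genes fell into a few roles. Among receptors and channels, Agtr1a, the angiotensin II receptor, stood at 410, 512 and 272 CPM in AML 1, 2 and 3 and at 149, 253 and 159 CPM in Control 1, 2 and 3, and Trpc6, a cation channel, averaged 405 ± 58.5 CPM in the AML group and 368 ± 128 CPM in the Control group (SD, n = 3 each). The groups did not overlap for Agtr1a, whose difference did not pass (edgeR, log2 change 1.02 ± 0.41 SE, adjusted p = 0.556). Secreted products were Vtn, the adhesive protein vitronectin, at 381 ± 102 CPM in the AML group and 334 ± 110 CPM in the Control group, and Il34, a ligand of the macrophage receptor CSF1R, at 138 ± 25.1 CPM and 63.9 ± 28.2 CPM. Lef1, a transcription factor of the Wnt pathway, averaged 166 ± 55.7 CPM in the AML group and 116 ± 57.1 CPM in the Control group. Signalling enzymes and surface proteins completed the 15 genes with the largest ratios: the adenylyl cyclase gene Adcy8, the protocadherin gene Pcdh18, the calsyntenin gene Clstn2, the Nodal co-receptor gene Tdgf1, and Fam162b, Mettl21e, Emid1 and Tafa1.

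**Figure D2:**
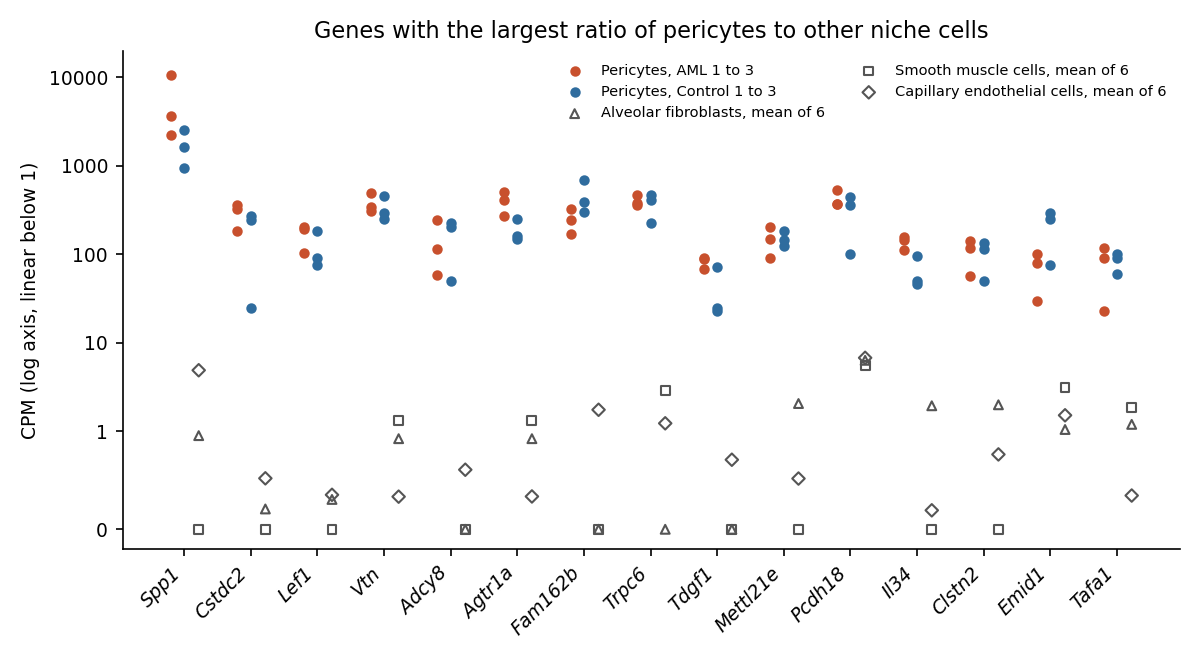
Levels in CPM (log axis, linear below 1) of the 15 genes with the largest ratio of pericytes to the highest of 3 other niche cell types; filled points are pericytes of AML 1 to 3 (left) and Control 1 to 3 (right), open symbols the mean of 6 libraries in each other type. Spp1 reached 10540 CPM in AML 2, and in none of the 3 other types did a gene of the 15 exceed 6.73 CPM.

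Members differed among themselves in these genes. Spp1 was seen in 34 of 85 AML pericytes and 13 of 47 Control pericytes and, as background, in 1.86% of AML and 1.33% of Control capillary cells. A single cell gave 86 of the 125 Spp1 UMIs of AML 1, 169 of 1051 in AML 2 and 84 of 196 in AML 3, against 28 of 38 in Control 1, 56 of 135 in Control 2 and 84 of 111 in Control 3. Its level in a library therefore hung on few cells, except in AML 2, where 23 of 42 cells had it. Acta2, the smooth muscle actin that mural cells of larger vessels carry, had a UMI in 36 of the 132 members and at least 5 UMIs in 14, 10 of the AML group and 4 of the Control group.

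The share of pericytes in the niche did not differ between the groups by more than the spread between libraries. They made up 0.313, 1.17 and 0.646% of barcodes with no Ptprc and at most 1 leukaemia-gene UMI in AML 1, 2 and 3, against 0.660, 0.634 and 0.384% in Control 1, 2 and 3. AML 2 lay above and AML 1 below all Controls. The means were 0.709% ± 0.431 in the AML group and 0.559% ± 0.152 in the Control group (SD, n = 3 each; exact two-sided permutation test, p = 0.8, where 3 against 3 libraries cannot give less than 0.1). Since membership needs 3 UMIs of few genes it depends on depth. With barcodes of at least 2000 UMIs thinned to 2000 and shallower ones left out, the shares were 0.523% ± 0.300 in the AML group. They were 0.522% ± 0.208 in the Control group (n = 3 each, exact permutation test, p = 1). In AML 3, 16 of 4012 barcodes were then members, where 31 of 4797 were without thinning, so these shares do not cover the shallow cells. Without AML 2 the unthinned difference was -0.0799 percentage points, the opposite sign. Among mesenchymal barcodes, the sum of pericytes, alveolar fibroblasts and smooth muscle cells, pericytes were 11.9% ± 2.97 in the AML group and 17.2% ± 3.69 in the Control group, also the opposite sign (n = 3 each; exact permutation test, p = 0.2).

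The comparison of AML-infiltrated with normal lungs asks how pericytes differ where leukaemia cells occupy the organ. Rgs5 and Fst were higher in AML pericytes, and these were the only genes of 1180 tested that passed edgeR's quasi-likelihood test at a Benjamini-Hochberg adjusted p of 0.05 (0.169% of genes). No gene was called lower (0%) by edgeR. At an unadjusted p under 0.05 stood 73 genes (6.19%), AML and Control libraries did not overlap in 138 genes (11.7%), and the median log2 change of all genes outside the rule was 0.02. DESeq2 called 3 genes, which were Rgs5, Fst and, lower in the AML group, AY036118.

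Fst encodes follistatin, a secreted protein that binds activins and keeps them from their receptors (ENSMUSG00000021765, chromosome 13, 114452290 to 114458951, minus strand, mm10). It gave 29, 197 and 79 UMIs in AML 1, 2 and 3, against 5, 27 and 3 UMIs in Control 1, 2 and 3. As levels these were 848, 1976 and 895 CPM in the AML libraries and 125, 325 and 68.3 CPM in the Controls. Every AML library lay above every Control library, and Fst rose 6.61-fold (log2 change 2.73 ± 0.50 SE, edgeR adjusted p = 0.0392). The gain was spread over cells. Fst was seen in 10 of 12, 35 of 42 and 20 of 31 members of AML 1, 2 and 3, against 2 of 11, 9 of 23 and 2 of 13 members of Control 1, 2 and 3. These shares averaged 77.1% ± 10.9 in the AML group and 24.2% ± 13.0 in the Control group (SD, n = 3 each), and the exact permutation p was 0.1, the smallest that 3 against 3 allows. With cells of at least 1000 UMIs thinned to 1000 and shallower ones left out, 54.9% of 82 AML and 19.0% of 42 Control pericytes kept an Fst UMI. In capillary cells, unthinned, Fst was seen in 0.501% of AML and 0.074% of Control cells. The cells with fewer than 3 pericyte markers gave 4 of 305 Fst UMIs in the AML group and 0 of 35 in the Control group.

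The Fst call was kept with only the 115 cells that had at least 3 of 9 markers, Rgs5 not among them (edgeR adjusted p = 0.00672), and without the deepest cell of each library (adjusted p = 0.0209). It was lost without AML 1, AML 2, AML 3, Control 1 or Control 3 (edgeR adjusted p = 0.0550, 0.571, 0.0595, 0.0997 and 0.201), with log2 changes of 2.19 to 2.93, and with only the 119 cells that had no UMI of the endothelial or leukaemia genes (log2 change 2.58, adjusted p = 0.131).

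Rgs5 encodes a GTPase-activating protein that shortens signals of G protein-coupled receptors and is a classical pericyte marker (ENSMUSG00000026678, chromosome 1, 169655501 to 169695813, plus strand, mm10). It gave 52, 25 and 44 UMIs in AML 1, 2 and 3, against 0, 1 and 1 UMIs in Control 1, 2 and 3, which is 1521, 250.8 and 498 CPM in the AML libraries and 0, 12.1 and 22.8 CPM in the Controls. The groups did not overlap, and Rgs5 rose with a log2 change of 5.68 ± 0.94 (SE, edgeR adjusted p = 0.0392). With 2 UMIs in all Controls together that value depends on the prior count. The ratio of pooled UMIs per total was 46.3, with an exact 95% counting interval of 12.5 to 386. In AML 1, 51 of the 52 UMIs lay in 1 cell. Without that cell AML 1 kept 1 UMI, which is 32.8 CPM with no TMM factor, near the 22.8 CPM of Control 3. The distance of AML 1 from the Controls thus rested on 1 cell. The pooled ratio without that cell was 27.0, with an interval of 7.21 to 228. Of the 70 AML UMIs behind this ratio, AML 2 gave 25, with 6 in 1 cell, and AML 3 gave 44, with 15 in 1 cell. The cells with most Rgs5 in AML 1, 2 and 3 had 7, 4 and 6 UMIs of the rule's genes, beside a median of 15 in AML members. That of AML 3 also held 10 UMIs of Acta2. Rgs5 was seen in 2 of 12, 13 of 42 and 14 of 31 members of AML 1, 2 and 3, against 0 of 11, 1 of 23 and 1 of 13 members of Control 1, 2 and 3. The 0 of 11 cells of Control 1, at a floor of 3 counts, allows a share of cells with a UMI of up to 27.3%. The shares averaged 30.9% ± 14.2 in the AML group and 4.01% ± 3.86 in the Control group (n = 3 each; exact permutation test, p = 0.1, the smallest possible). Pooled shares were 34.1% of AML and 4.26% of Control pericytes, against 4.98% of AML and 4.06% of Control capillary cells. The exact 95% interval of the Control pericyte share, 0.520 to 14.5%, holds the share of Control capillary cells. It covers counting error over pooled cells only and is wide. Whether the Control UMIs of Rgs5 are background was not tested. With each cell thinned to 1000 UMIs, 24.4% of 82 AML cells and 0% of 42 Control cells kept a UMI of Rgs5, with 3 AML and 5 Control cells too shallow to enter.

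Rgs5 passed the filter on low counts, 160.5 CPM in 3 libraries, by its AML libraries alone, with 3 AML and 0 Control libraries above it, and Fst with 3 AML and 1 Control libraries. The Rgs5 call was lost without AML 3, Control 1, Control 2 or Control 3 (edgeR adjusted p = 0.0595, 0.346, 0.1899 and 0.201), with log2 changes of 5.88, 5.31, 5.68 and 6.18. It was lost as well without cells that had an endothelial or leukaemia UMI (log2 change 5.60, adjusted p = 0.156) and without the deepest cell of each library (5.59, 0.0568). With the 115 cells that had at least 3 other markers, with a marker sum of at least 5 and with 11 cells per library it was below the filter and was not tested.

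**Figure D3:**
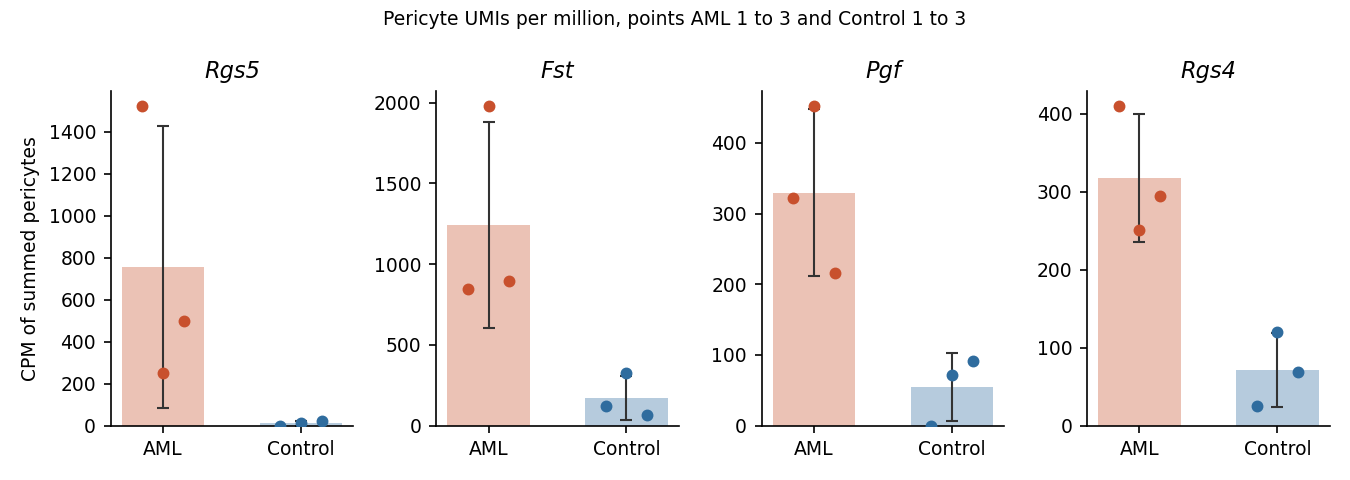
Levels of Rgs5, Fst, Pgf and Rgs4 in summed pericytes, in CPM (points, AML 1 to 3 on the left and Control 1 to 3 on the right; bars, mean; lines, SD, n = 3). Fst averaged 1240 CPM in the AML group and 173 CPM in the Control group; Pgf and Rgs4 did not pass the test.

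**Figure D4:**
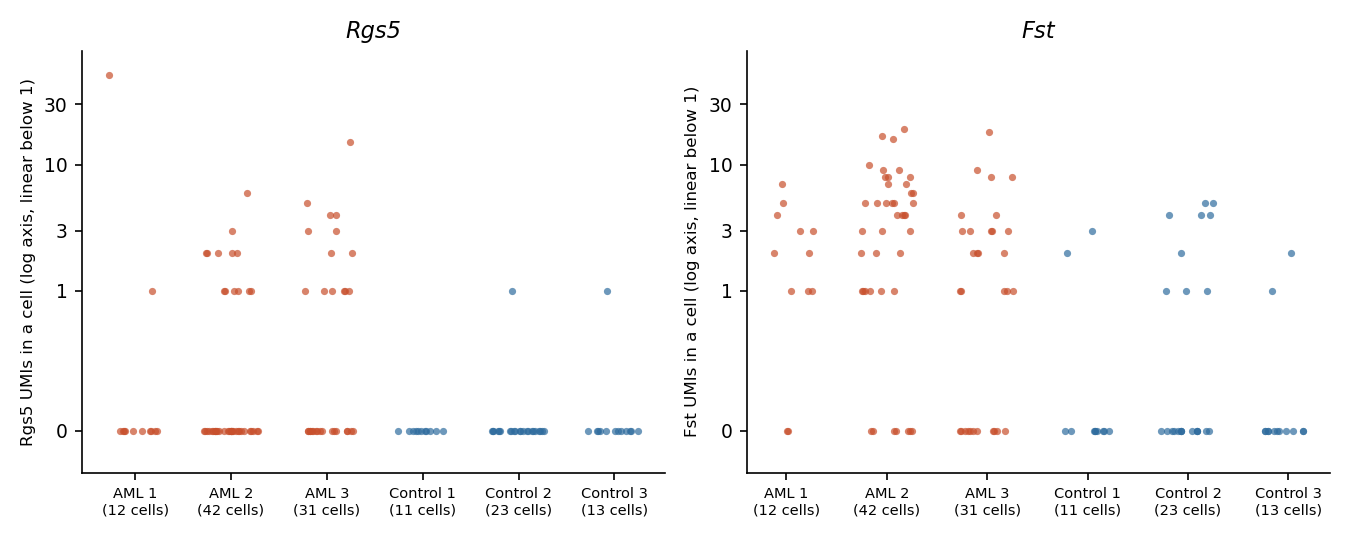
UMIs of Rgs5 and Fst in each pericyte by library (1 point a cell, log axis that is linear below 1, points spread sideways to be seen). One cell of AML 1 held 51 Rgs5 UMIs, and Fst UMIs were spread over 10 of 12, 35 of 42 and 20 of 31 cells of AML 1, 2 and 3.

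The promoter of Rgs5 is shown because this gene carries the largest difference between the groups. The bases are RefSeq's, build GRCm38.p6, plus strand, chr1:169655251-169655550, from 250 bases before to 50 after the start site; capitals mark TATATA, 30 bases before the start, and CAGAC, 19 after it.
Rgs5: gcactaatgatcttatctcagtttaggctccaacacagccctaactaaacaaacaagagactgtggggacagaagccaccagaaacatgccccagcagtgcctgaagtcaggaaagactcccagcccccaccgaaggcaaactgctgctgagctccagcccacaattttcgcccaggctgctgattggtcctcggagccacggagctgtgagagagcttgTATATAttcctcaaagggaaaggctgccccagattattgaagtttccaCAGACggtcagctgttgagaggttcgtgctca
On both strands TATATA is in 5.67% of 32851 promoters of this length and CAGAC, the core letters bound by SMAD proteins, in 49.6%. The window also holds 1 CANNTG, found in 72.3% of promoters, and neither ACGTG (19.6%) nor GTGGGAA (6.38%). A match of letters says nothing of what is bound in these cells. The promoter of Fst was not used here.

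Next to these came genes that did not pass. The 20 genes with the smallest p after Rgs5 and Fst, picked once their values were seen, had edgeR adjusted p from 0.122 to 0.320. Secreted factors were among those with higher AML values. Pgf, placental growth factor, a ligand of the receptor FLT1, gave 322, 451 and 215 CPM in AML 1, 2 and 3, against 0, 72.3 and 91.0 CPM in Control 1, 2 and 3 (log2 change 2.46 ± 0.58 SE, edgeR adjusted p = 0.122). Hbegf, a ligand of the EGF receptor, averaged 506 ± 179 CPM in the AML group and 164 ± 122 CPM in the Control group (edgeR adjusted p = 0.315). Rgs4, of the same family as Rgs5 and beside it on chromosome 1 (169741477 to 169747642, minus strand), stood at 410, 250.8 and 294 CPM in the AML libraries and at 24.9, 121 and 68.3 CPM in the Controls (log2 change 1.91 ± 0.50 SE, edgeR adjusted p = 0.184). The libraries of the groups did not overlap for any of these 3 genes, beside 11.7% of all genes tested. Since the genes were picked by small p, this adds no support. Pgf and Rgs4 passed the filter on low counts with 3 AML and 0 Control libraries, and Hbegf with 3 AML and 2 Control libraries. Rhoj, a small GTPase of the Cdc42 group, averaged 767 ± 213 CPM in AML and 239 ± 64.3 CPM in Control pericytes (edgeR adjusted p = 0.122).

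Lower values in the AML group, also short of the threshold, were found for the chaperones Dnaja1, at 143 ± 31.2 CPM in the AML group and 464 ± 94.2 CPM in the Control group (edgeR adjusted p = 0.122), and Hspa8, at 565 ± 209 CPM and 1301 ± 334 CPM (edgeR adjusted p = 0.202). Col3a1, a fibrillar collagen, stood at 234, 90.3 and 419 CPM in AML 1, 2 and 3, against 1370, 880 and 478 CPM in Control 1, 2 and 3 (edgeR adjusted p = 0.231). Serpine2, an inhibitor of thrombin and plasminogen activators, averaged 85.5 ± 28.9 CPM in the AML group and 274 ± 96.1 CPM in the Control group (edgeR adjusted p = 0.189). It passed the filter on low counts with 0 AML and 3 Control libraries. In alveolar fibroblasts of the same libraries Dnaja1 averaged 239 CPM in the AML group and 469 CPM in the Control group, and Col3a1 233 CPM and 1723 CPM, differences of the same sign as in pericytes.

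By role, none of the genes that make a pericyte passed the test, Rgs5 aside. Of 22 identity genes 16 were tested, 1 was called (Rgs5), and their median log2 change was 0.17, beside 0.02 over all genes. Pdgfrb averaged 568 ± 88.2 CPM in the AML group and 679 ± 279 CPM in the Control group (log2 change -0.28 ± 0.35 SE, edgeR adjusted p = 0.999). The guanylate cyclase subunits Gucy1a1 and Gucy1b1 stood at 4518 ± 927 and 2859 ± 874 CPM in AML pericytes and at 3322 ± 1109 and 1844 ± 759 CPM in Control pericytes. The regulators Tbx2, Tbx4, Tbx5 and Foxf1, transcription factors of lung mesenchyme, had log2 changes of 0.08, 0.47, -0.04 and 1.08, none past the threshold (edgeR adjusted p of at least 0.80). Mcam, Ebf1, Ndufa4l2, Vtn, Art3, Ednra, Trpc6 and Postn lay between -0.24 and 0.55. Standard errors of these log2 changes, Rgs5 aside, ran from 0.30 for Gucy1a1 to 0.69 for Art3.

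Rgs5 aside, edgeR called 0 members of the 26 gene lists examined, and DESeq2 likewise called Rgs5 as the 1 list member. Of signals from pericytes to endothelium 7 of 32 genes were tested, with a median of 0.18 and 2 at an unadjusted p under 0.05, Pgf and Heyl. Angpt1, the ligand of TIE2, averaged 663 ± 248 CPM in the AML group and 417 ± 200.2 CPM in the Control group. Of 20 Notch pathway genes the 5 tested all had log2 changes above 0 (Notch1, Notch2, Hes1, Heyl and Maml3, median 0.61), beside 608 of all 1175 genes, with 1 at an unadjusted p under 0.05, beside 6.19% of all genes. Heyl, a Notch target of mural cells, stood at 176, 281 and 193 CPM in AML 1, 2 and 3, against 74.7, 48.2 and 205 CPM in Control 1, 2 and 3.

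Vasoactive receptors and channels had 6 of 37 genes tested, with a median of 0.27 and 2 at an unadjusted p under 0.05. Pde5a, the phosphodiesterase that ends cyclic GMP signals, stood at 1229, 1164 and 781 CPM in the AML libraries and at 1270, 1940 and 2048 CPM in the Controls (log2 change -0.74 ± 0.29 SE, edgeR adjusted p = 0.556). Contractile genes had 13 of 21 tested and a median of 0.08. Acta2 stood at 1346, 863 and 317 CPM in AML 1, 2 and 3, against 399, 241 and 341 CPM in Control 1, 2 and 3 (log2 change 1.34 ± 0.47 SE, edgeR adjusted p = 0.492). AML 3 lay within the Control range.

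Matrix genes had medians near that of all genes. The 11 tested genes of the basement membrane, which pericytes share with endothelium, had a median of -0.02 and 0 at an unadjusted p under 0.05; Col4a1 averaged 1776 ± 726 CPM in the AML group and 1299 ± 292 CPM in the Control group. The 9 fibrillar matrix genes had a median of -0.05, with 2 at an unadjusted p under 0.05, Col3a1 and Serpinh1. Dcn spread widest, at 0, 171 and 2446 CPM in AML 1, 2 and 3, against 673, 36.2 and 0 CPM in Control 1, 2 and 3; in AML 3, 116 and 83 of its 216 UMIs were in 2 cells described above.

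No gene of the stress and inflammatory lists passed the test. Heat shock chaperones had 7 of 23 genes tested, 6 of them below 0, beside 567 of all 1175 genes, with a median of -0.69 and 2 at an unadjusted p under 0.05. The cold-inducible RNA-binding genes Cirbp, Rbm3 and Srsf5 had log2 changes of 1.65, 1.66 and 0.86, with Cirbp at 322, 381 and 238 CPM in AML 1, 2 and 3 and 74.7, 133 and 68.3 CPM in Control 1, 2 and 3 (edgeR adjusted p = 0.202). These differences were not particular to pericytes. In alveolar fibroblasts, smooth muscle cells and capillary cells Cirbp averaged 186, 204 and 157 CPM in the AML group, against 59.6, 56.3 and 44.9 CPM in the Control group. Rbm3 averaged 504.5, 762 and 628 CPM there in the AML group, against 170, 222.5 and 218.5 CPM in the Control group. Srsf5 had the same sign in each. Immediate early genes, which tissue digestion can raise, had 13 tested and a median of 0.02. None of the type I interferon or interferon gamma lists, 28 and 22 genes of the files, reached the filter on low counts, so the interferon response could not be judged at this depth. NF-kB targets had 4 genes tested, at a median of -0.30. Blood cell support factors also had 4, at 0.23: Kitl, the stem cell factor that binds KIT, averaged 324 ± 128 CPM in the AML group and 355 ± 114 CPM in the Control group (edgeR adjusted p = 0.999). Cxcl12, the chemokine that holds blood stem cells in marrow, was low in members, at 87.8, 10.0 and 90.6 CPM in AML 1, 2 and 3, against 74.7, 48.2 and 22.8 CPM in Control 1, 2 and 3, and was not tested.

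Few genes stood for the remaining lists. P53 targets had 3 tested, all above 0, beside 608 of all 1175 genes, with a median of 1.22. They were led by Cdkn1a, the cyclin-dependent kinase inhibitor p21, which is also in the TGF-beta and glucocorticoid lists. Its higher AML mean was not particular to pericytes. In capillary cells, smooth muscle cells and fibroblasts Cdkn1a averaged 2339, 321 and 272 CPM in the AML group, against 1239, 176 and 252 CPM in the Control group. In pericytes it stood at 439, 853 and 306 CPM in AML 1, 2 and 3, against 274, 217 and 68.3 CPM in Control 1, 2 and 3 (log2 change 1.51 ± 0.50 SE, edgeR adjusted p = 0.398). TGF-beta response genes had 8 tested with a median of -0.36, from -1.16 for Pmepa1 to 1.51 for Cdkn1a. The nuclear respiratory chain had 20 of 35 tested, 15 below 0, beside 567 of all 1175 genes, with a median of -0.13 and 0 at an unadjusted p under 0.05. The lists not named above, among them complement, hypoxia, acute phase, glucocorticoid response and proliferation, had medians between -0.63 and 0.39.

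Markers of other cell types were present in members at levels that differed between libraries. Summed fibroblast markers ranged from 1384 to 7769 CPM in the AML libraries and from 1457 to 6700 CPM in the Controls, with the highest values in AML 3 and Control 1. Smooth muscle and myofibroblast markers ranged from 1687 to 3189 CPM in the AML group and from 1502 to 5529 CPM in the Control group, with Hhip, a myofibroblast gene, at 3836 CPM in Control 1. Endothelial markers outside the rule ranged from 317 to 439 CPM in AML and from 324 to 888 CPM in Control libraries, with the highest value in Control 3. Epithelial markers ranged from 385 to 612 CPM in the AML group and from 313 to 1912 CPM in the Control group, with Hopx, Sftpc and Ager at 683, 501 and 432 CPM in Control 3. Leukaemia markers ranged from 176 to 374 CPM in the AML group and from 205 to 448 CPM in the Control group, 12 of the 15 myeloid markers outside the rule were at 0 in every library, and lymphoid markers were seen in AML 3 alone, at 170 CPM. For Rgs5, Fst and the genes named, the part of these markers in the result was not tested, beyond the values without the cells that lacked pericyte markers. For Rgs5 those values are its UMI counts and the fits against other cell types.

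Rgs5 and Fst were also set against the response of neighbouring cells in the same libraries, in a fit with library as a term. Rgs5 had 0 UMIs in alveolar fibroblasts of either group. In smooth muscle cells it averaged 24.3 CPM in the AML group and 46.3 CPM in the Control group, and its difference between groups was larger in pericytes by 6.34 ± 0.97 on the log2 scale (SE, edgeR adjusted p = 0.000800). In capillary cells it averaged 20.8 CPM in the AML group and 10.9 CPM in the Control group, and the response in pericytes was larger by 4.80 ± 0.81 (edgeR adjusted p = 1.18e-05). Both differences passed with the 115 cells that had at least 3 other markers (edgeR adjusted p = 0.00115 and 0.000411). That set keeps the AML 1 cell with 51 of its library's 52 Rgs5 UMIs. With AML 1 left out as a whole, the differences were 5.51 (edgeR adjusted p = 0.0143) and 3.92 (0.0333). A fit without that cell alone was not run. The call against smooth muscle cells was lost without Control 1 (edgeR adjusted p = 0.0524). For Fst the difference between responses did not pass in any pair. Its levels in fibroblasts were 5.49 CPM in the AML group and 6.44 CPM in the Control group. The AML mean of Fst was higher in smooth muscle cells, at 35.5 CPM against 15.8 CPM in the Control group. It was higher in capillary cells too, at 1.55 CPM against 0.311 CPM. Higher AML means of Fst were thus not particular to pericytes, though these levels rest on 19 smooth muscle and 60 capillary UMIs. The excess of the Fst response in pericytes over fibroblasts was 3.24 ± 0.87 (edgeR adjusted p = 0.143), over smooth muscle cells 1.68 ± 1.96 (0.921) and over capillary cells 0.66 ± 0.76 (1).

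In all, the response of pericytes differed from that of alveolar fibroblasts in 9 of 6107 genes (0.147%), of smooth muscle cells in 4 of 2420 (0.165%) and of capillary cells in 17 of 11072 (0.154%). The 3 fits share the pericyte values. Within their own cell type, 179 of 7117 genes passed in fibroblasts (2.52%), 61 of 2087 in smooth muscle cells (2.92%) and 136 of 12184 in capillary cells (1.12%), from far more cells than the 132 pericytes in fibroblasts and capillary cells and from 142 smooth muscle cells.

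Timp3, an inhibitor of metalloproteinases that binds matrix, had differences of opposite sign in pericytes and alveolar fibroblasts. Higher AML means were not particular to pericytes. Timp3 averaged 2420 CPM in AML and 704 CPM in Control capillary cells, and 1674 CPM in AML and 1454 CPM in Control smooth muscle cells. In pericytes it stood at 3101, 6349 and 9139 CPM in AML 1, 2 and 3, against 3462, 2217 and 2458 CPM in Control 1, 2 and 3. In fibroblasts it stood at 1265, 1558 and 1605 CPM in the AML libraries and at 2812, 2421 and 2146 CPM in the Controls. Neither difference passed alone (edgeR adjusted p = 0.291 in pericytes and 0.177 in fibroblasts), but the difference between them was 1.84 ± 0.33 on the log2 scale (edgeR adjusted p = 0.000637). In pericytes AML 1 lay within the Control range. In fibroblasts the groups did not overlap, which adds no support since Timp3 was picked by small p. The AML 3 value in pericytes was 4967 CPM without its deep cell, and the difference was then 1.66 (adjusted p = 0.000391 without the deepest cell of each library).

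Against fibroblasts, Csrp2, a LIM-domain protein of muscle-like cells, and the imprinted non-coding RNA Meg3 parted too. Csrp2 stood at 205, 231 and 306 CPM in pericytes of AML 1, 2 and 3, against 74.7, 181 and 137 CPM in those of Control 1, 2 and 3. In fibroblasts it stood at 53.5, 13.7 and 30.1 CPM in the AML libraries and at 194, 228 and 81.2 CPM in the Controls, a difference between the responses of 3.46 ± 0.56 (edgeR adjusted p = 0.000176). For both genes the groups did not overlap in either cell type, beside 11.7% of all genes tested in pericytes. No such share was taken in fibroblasts. Since both genes were picked by small p, this adds no support. Meg3 averaged 204 CPM in AML and 128 CPM in Control pericytes, and stood at 20.3, 0 and 3.47 CPM in AML and 59.0, 91.1 and 110 CPM in Control fibroblasts, a difference of 4.58 ± 0.71 (edgeR adjusted p = 0.000448). Itih5, a hyaluronan-binding matrix protein, gave 3, 20 and 2 UMIs in AML and 0, 1 and 0 UMIs in Control pericytes (difference 6.33 ± 1.14, edgeR adjusted p = 0.000637, lost without AML 2 at 0.0841). Fibroblasts held it at 10.4 CPM in the AML group and 48.8 CPM in the Control group (edgeR adjusted p = 0.0435 in fibroblasts alone). Thbs1, the matrix protein thrombospondin 1, gave 0, 6 and 1 UMIs in AML and 28, 12 and 3 UMIs in Control pericytes (difference -3.26 ± 0.63, edgeR adjusted p = 0.00230), a call lost in the cells with at least 3 other markers (difference -3.77, adjusted p = 0.104). Fibroblasts held Thbs1 at 511 CPM in the AML group and 620 CPM in the Control group.

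Against smooth muscle cells, Tsc22d3, a glucocorticoid-induced leucine zipper protein, was level in pericytes, at 912 ± 160 CPM in the AML group and 879 ± 368 CPM in the Control group, and stood at 266 CPM in AML and 901 CPM in Control smooth muscle cells. The difference was 1.85 ± 0.37 (edgeR adjusted p = 0.0256). Stbd1, which binds glycogen, gave 1, 0 and 0 UMIs in AML and 2, 8 and 8 UMIs in Control pericytes (difference -4.72 ± 0.99, adjusted p = 0.0382). Smooth muscle cells held it at 296 CPM in the AML group and 187 CPM in the Control group. Pnmt, the enzyme that makes adrenaline, gave 0 UMIs in every AML library of pericytes and 15, 6 and 0 UMIs in the Controls (difference -6.59 ± 1.41, edgeR adjusted p = 0.0423). In smooth muscle cells Pnmt averaged 173 CPM in the AML group and 93.9 CPM in the Control group. Without Control 1 the calls of Rgs5, Tsc22d3 and Stbd1 against smooth muscle cells were lost and Pnmt was not tested, so that 0 genes passed in edgeR and 149 had an unadjusted p under 0.05; no other tool was run on this fit. Stbd1 was also lost without AML 2, Control 3 or the deepest cells (adjusted p = 0.0666, 0.163 and 0.152), Tsc22d3 without Control 3 or with at least 3 other markers (0.163 and 0.0673), and Pnmt without AML 1 (0.409), while with at least 3 other markers Pnmt was not tested. Myl6, a myosin light chain and the fifth gene by p, did not pass: it stood at 1170, 652 and 974 CPM in pericytes of AML 1, 2 and 3 and at 1171, 1024 and 1343 CPM in those of Control 1, 2 and 3, and averaged 8244 CPM in AML and 4757 CPM in Control smooth muscle cells (difference -1.21 ± 0.27, edgeR adjusted p = 0.0502). It passed under 6 of 10 alternatives, with adjusted p from 2.04e-05 to 0.0488 in those.

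Against capillary cells, Sept4, a septin of the cytoskeleton, stood at 673, 612 and 487 CPM in pericytes of AML 1, 2 and 3 and at 349, 603 and 432 CPM in those of Control 1, 2 and 3. In capillary cells it averaged 57.1 CPM in the AML group and 226 CPM in the Control group. The difference was 2.50 ± 0.41 (edgeR adjusted p = 6.12e-06). Flt1, the receptor for Pgf and VEGF that endothelium carries, gave 3, 32 and 9 UMIs in AML pericytes and 1, 0 and 0 UMIs in Control pericytes, while capillary cells averaged 1220 CPM in the AML group and 949 CPM in the Control group (difference 4.63 ± 0.84, edgeR adjusted p = 0.000123). That call was lost without AML 2 (difference 3.34, adjusted p = 0.729) or Control 2 (3.73, 0.0560), and the difference was 12.1 without Control 1, which held the 1 Control UMI, and 12.2 without the deepest cells. Plat, tissue plasminogen activator, averaged 150 CPM in AML and 157 CPM in Control pericytes, and 201, 1741 and 448 CPM in capillary cells of AML 1, 2 and 3, against 111, 123 and 98.1 CPM in those of Control 1, 2 and 3 (difference -2.72 ± 0.51, adjusted p = 0.000252, lost without AML 2 at 0.572 and with at least 3 other markers at 0.0584). Ctla2a, an inhibitor of cysteine proteases, averaged 31.4 CPM in AML and 243 CPM in Control pericytes (difference -2.98 ± 0.48, edgeR adjusted p = 5.34e-06). Capillary cells held it at 4359 CPM in the AML group and 2849 CPM in the Control group, and the call was lost with at least 3 other markers (adjusted p = 0.128) and without Control 3 (0.493), whose members gave 24 of the 36 Control UMIs and had the highest endothelial marker sum. Fitted differences of Itih5, Stbd1, Pnmt, Flt1 and Rgs5 rest on 0 to 2 UMIs in the lower group of pericytes and depend on the prior count.

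**Figure D5:**
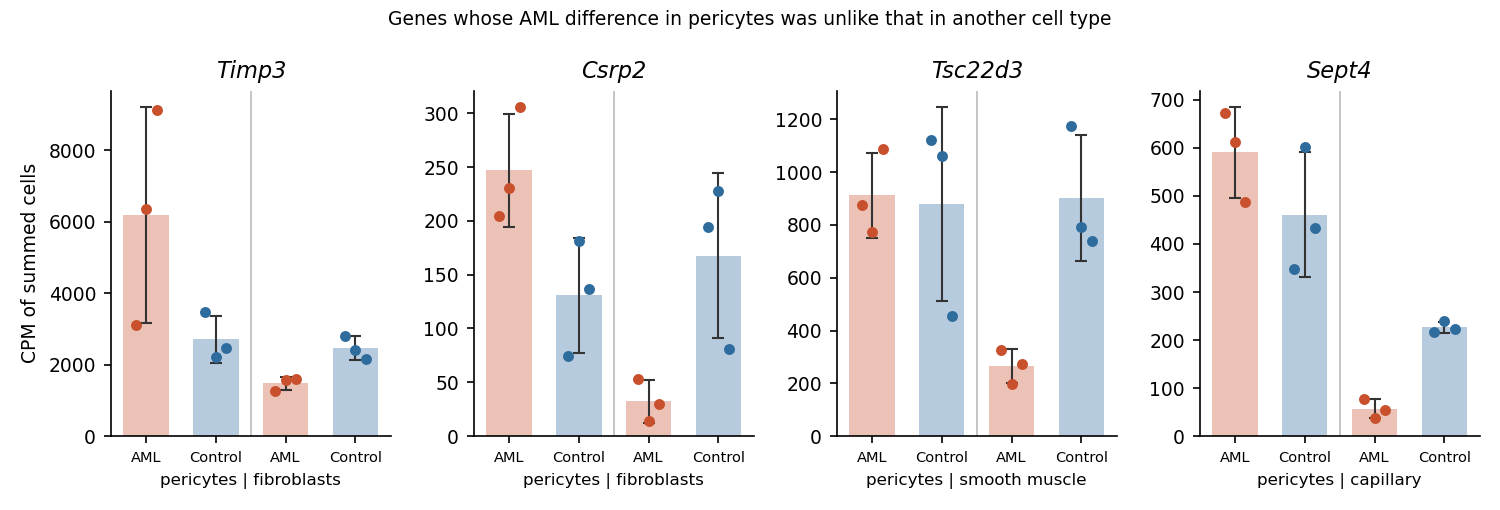
Levels in CPM of 4 genes whose difference between AML and Control libraries in pericytes was unlike that in another cell type of the same libraries (points, libraries 1 to 3; bars, mean; lines, SD, n = 3; pericytes left of the grey line, the other cell type right of it). Timp3 averaged 6196 CPM in AML and 2712 CPM in Control pericytes, and 1476 CPM in AML and 2459 CPM in Control fibroblasts.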

How the data were processed

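The deposited files hold raw UMI counts per gene and barcode over 32285 features, which the authors made with Cell Ranger (version 6.0.1 per the file headers, 7.0.0 per the submitters' processing notes) and the mm10 genome. No cell annotation of the authors was used, and cells were classed by the rules given, so a difference from the study's classes may come from that. UMIs were summed per library and cell type, since cells are not replicates, and tested with edgeR 4.0.16 (R 4.3.3; quasi-likelihood, robust, TMM, filterByExpr with 10 counts, adjusted p threshold 0.05), checked on simulated data, in which the share of false calls was under the threshold for the comparison of pericytes and a little over it for the fits between cell types, which also missed many large changes. The SE of an edgeR log2 change is its absolute value divided by the square root of the test's F statistic, since edgeR gives none. For genes with few UMIs in a group it depends on the prior count, as the log2 change does. DESeq2 1.42.0 was an alternative. Comparison cells, not members, had at least 3 UMIs of Col13a1, Npnt, Tcf21, Wnt2 and Fgfr4 (alveolar fibroblasts, 677), of Actg2, Des and Cnn1 and of Myh11, Acta2 and Tagln (smooth muscle cells, 142), or of Cdh5, Pecam1 and Cldn5 and of Gpihbp1, Kdr and Egfl7 (capillary cells, 13588), with upper limits on the others' genes. Scrublet (scanpy 1.11.5) scored doublets, and a top-scoring share of 0.8% for each 1000 barcodes of a library counted as such. Capillary sums of 2 libraries of a group always parted beyond sampling noise (chi-square per degree of freedom 26.5 to 46.3), so no library was a copy. Coordinates are GENCODE M21's on mm10, found for 32158 of 32285 features; promoter bases are RefSeq's.

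Named genes are those past the threshold with no overlap of groups and at least 30 CPM, the 15 with the largest ratio to other cell types, tested identity genes, up to 2 of the highest members of each list, and the 5 of smallest p against each other cell type; others were named after their values were seen. The members and all lists were chosen with earlier results of these data known. Alternatives were another scaling, DESeq2, no low-count filter, a replicate block, each library left out, a stricter marker sum, equal cells per library and no doublets. Added after seeing the data were: no endothelial or leukaemia UMI, no deepest cell, and at least 3 markers other than Rgs5. Intervals cover counting error only.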

Additional observations from a re-analysis of the deposited data

Results flagged for a closer look

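The following responses, AML minus Control, differed between pericytes and another cell type of the same libraries by a test of the difference itself (edgeR interaction, log2 scale), and their values, per library or as group means, stand above. Against alveolar fibroblasts the response of pericytes exceeded by 3.46 for Csrp2, 4.58 for Meg3, 1.84 for Timp3 and 6.33 for Itih5, and lay below by -3.26 for Thbs1. Against smooth muscle cells it exceeded by 6.34 for Rgs5 and 1.85 for Tsc22d3, with -4.72 for Stbd1 and -6.59 for Pnmt. Against capillary endothelial cells it exceeded by 2.50 for Sept4, 4.80 for Rgs5 and 4.63 for Flt1, with -2.98 for Ctla2a and -2.72 for Plat. In pericytes alone only Rgs5 passed. Csrp2, Meg3 and Sept4 did not (edgeR adjusted p = 0.801, 0.878 and 0.996), nor did Timp3, Tsc22d3 and Plat. Itih5, Thbs1, Stbd1, Pnmt, Flt1 and Ctla2a were not tested there.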

How the results depend on the processing

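Of 2 changed genes, both higher, the count was 2 with DESeq2's size factors, without doublets and without the deepest cell of each library (1 higher, Fst, and 1 lower, AY036118), 3 with the DESeq2 test (2 higher, 1 lower) and 14 without the low-count filter (10 higher, 4 lower). It was 1 with a marker sum of at least 5, with equal cells per library and with at least 3 markers other than Rgs5 (Fst, 1 higher each), and 0 without endothelial or leukaemia UMIs (edgeR; 71 at an unadjusted p under 0.05). Leaving out 1 library gave 0 to 2 genes, 0 to 2 higher and 0 to 1 lower: Rgs5 and Mt1 without AML 1, Rgs5 without AML 2, Hspa1a (lower) without Control 1, Fst without Control 2, and 0 without AML 3 or Control 3 (edgeR; 74 and 89 at an unadjusted p under 0.05). List members called, 1 in the main test, numbered 6 without the filter, 0 with a marker sum of at least 5, with equal cells, without endothelial or leukaemia UMIs, without the deepest cells and with at least 3 other markers, and 0 to 2 with a library left out. Genes whose response was unlike fibroblasts, 9, numbered 30 without the filter, 42 without the deepest cells, 56 with at least 3 other markers and 13 (Control 1) to 51 (AML 1) with a library left out. Unlike smooth muscle cells, 4, they numbered 14 without the filter and 0 (Control 1) to 19 (AML 3) with a library left out. Unlike capillary cells, 17, they numbered 11 both without the deepest cells and with at least 3 other markers, and 8 (AML 2) to 25 (AML 1) with a library left out. The cause of these shifts was not tested. The difference in pericyte share, 0.1498 percentage points, was -5.31 as a percent of mesenchymal barcodes, and -0.0799 to 0.348 with a library left out. With the replicate number as a block the count was 2. Deviations of same-numbered libraries correlated at -0.144, 0.0214 and -0.135, beside -0.152 to 0.223 for the other pairs. From sums of so few cells these values cannot tell whether the numbers pair the samples, and the labels do not say. The planned membership with no UMI of 11 other genes left 0 cells in AML 1 and was not run. Rgs5 and Fst stayed above 0 in log2 change under every alternative in which they were tested. Among the limits are 3 libraries a group and the depth of 132 cells, at which 1175 genes outside the rule could be tested.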
